A study of Mus musculus with 20 samples.

Results

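The genes described here build, crosslink and remodel the extracellular matrix of the liver or mark the hepatic stellate cells that make most of it. They were 47 genes fixed as a list, chosen with earlier results of these data known. A share of members set beside the share of all genes is therefore a description and not a test. A gene was read from probe sets whose single symbol in the platform annotation was that gene. Where there were several, the probe set of highest mean signal was taken. Of the 47, 45 had such a probe set. A filter on low signal kept 39, and 11217 genes of 18193 with a single-symbol probe set passed the same filter. The 6 below it were Lamb2, Thbs1, Thbs2, Lox, Timp1 and Tgfb2, and the 2 without a single-symbol probe set were Fbn1 and Loxl2.

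Livers came from male C57BL/6J mice kept free of specific pathogens and exposed to 137Cs gamma rays for 22 h per day. In experiment 1 the exposure lasted 485 days at 0.042 (low), 0.858 (medium) or 16.6 (high) mGy per day, which gave 20.6, 416 and 8030 mGy in all. In experiment 2 it lasted 401 days at 0.05, 1.00 or 20.0 mGy per day, which gave 20, 401 and 8015 mGy. Each level had 3 mice per experiment, each on its own array. Unirradiated controls were 1 array per experiment, of RNA pooled from 3 mice in experiment 1 and from 6 mice in experiment 2. The mice of experiment 1 were 8 weeks old at the start, livers were removed as soon as exposure ended, and total RNA of whole liver was hybridized to Affymetrix expression arrays. Hepatocyte products were high on all 20 arrays, with albumin (Alb) between 51943 and 85184.

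Collagens I, III and V form the fibrils of scar and capsule, whereas collagens IV, XV and XVIII, laminins and nidogens form basement membranes. In healthy liver the stellate cell lies between hepatocytes and sinusoidal endothelium and stores vitamin A as retinyl esters, made by the enzyme Lrat. On injury it turns into a myofibroblast that answers to PDGF and TGF beta, gains smooth muscle actin (Acta2) and secretes fibrillar collagen, and matrix metalloproteases with their TIMP inhibitors govern how that matrix is cleared.

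Upstream sequences are shown for the members on which the results turn, 250 bases before the start of transcription in RefSeq on build GRCm38.p6, read 5′ to 3′ on the strand of the gene. The capitals mark a GC box (GGGCGG on either strand) or a CCAAT box (CCAAT on either strand). Bgn, biglycan, is on the plus strand at chrX:73483351-73483600. Lrat is on the minus strand at chr3:82903975-82904224. Sparc, the matrix glycoprotein osteonectin, is on the minus strand at chr11:55420081-55420330. The last line is not upstream of a gene. It is the 22 bases at chr8:11312805-11312826, plus strand, from the start of Col4a2 to the start of Col4a1. Col4a2 lies on the plus and Col4a1 on the minus strand, so the transcripts of both begin by running through these bases.
Bgn: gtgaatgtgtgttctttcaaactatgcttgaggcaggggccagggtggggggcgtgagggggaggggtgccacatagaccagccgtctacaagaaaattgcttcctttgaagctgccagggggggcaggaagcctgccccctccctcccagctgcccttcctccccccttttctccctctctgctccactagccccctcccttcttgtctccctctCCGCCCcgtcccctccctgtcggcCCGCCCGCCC
Lrat: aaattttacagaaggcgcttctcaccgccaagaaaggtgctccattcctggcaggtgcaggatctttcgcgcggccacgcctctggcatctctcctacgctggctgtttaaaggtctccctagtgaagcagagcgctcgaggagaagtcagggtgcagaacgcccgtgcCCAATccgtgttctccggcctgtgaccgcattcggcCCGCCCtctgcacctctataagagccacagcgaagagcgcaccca
Sparc: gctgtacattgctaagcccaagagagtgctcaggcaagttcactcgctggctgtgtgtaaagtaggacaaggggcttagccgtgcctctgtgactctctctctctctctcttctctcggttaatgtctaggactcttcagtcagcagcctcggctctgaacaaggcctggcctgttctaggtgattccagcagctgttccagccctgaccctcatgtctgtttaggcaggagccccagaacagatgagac
Col4a2 to Col4a1: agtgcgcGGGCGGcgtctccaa

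The Bgn stretch held 3 GC boxes, with their first bases 34, 10 and 6 bases before the start, of which the last 2 overlap. The Lrat stretch held a CCAAT box 81 bases and a GC box 45 bases before the start, and the Sparc stretch held neither. Of the 47 members, 30 had an entry in the promoter table. Within these 250 bases a GC box was found in 18 of 30 (60%, against 35.4% of 27025 genes), a CCAAT box in 12 of 30 (40% against 37.5%) and TATAAA in 4 of 30 (13.3% against 14.3%). The palindromic SMAD box GTCTAGAC was found in 0 of 30 (0.2% of all genes), and the AP-1 motif TGANTCA in 2 of 30 (6.67% against 7.82%). These are matches of letters, each searched on both strands.

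Arrays had been scaled to the same trimmed mean of 500 and their median signals ran from 81.3 to 104.8. Correlations between arrays over the genes tested lay between 0.9388 and 0.9775. RNA quality, read as the Gapdh 3′/5′ ratio, spanned 0.69 to 0.769 across the arrays of experiment 1 and 0.871 to 0.993 across those of experiment 2, while the actin ratio spanned 1.85 to 2.15 and 2.25 to 2.61. Contrasts between dose levels were therefore taken with the experiment as a term. In the fit a pool had the same weight as the array of a single mouse. Differences below are on the log2 scale after 7.12 was added to each signal, with standard errors (SE) of the limma fit, and adjusted p is its Benjamini-Hochberg value over all 11217 genes. Levels are MAS5 signals, which are not comparable between genes. In whole liver, fewer cells of a type and less RNA per cell cannot be told apart.

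One liver stood apart in these genes. In low mouse 2 of experiment 1, 3 of 39 members were above the mean of its group, with a median deviation of -0.49, whereas the median over all genes was -0.0037. In its 2 group mates 33 and 31 members lay above the group mean. Markers of activated stellate cells (median deviation -0.52), quiescent stellate cells (-0.30), portal fibroblasts (-0.35) and Kupffer cells (-0.34) were low in the same mouse, sinusoidal endothelial markers were at -0.08 and cholangiocyte markers, of which 3 passed the filter, were at 0.93. The part of cell content in the member values of this mouse was not tested. Among the other 17 mice the members' median deviation ran from -0.13 to 0.27. Where a contrast or its median moved by over 1.5 times without this mouse, the value without it is given.

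**Figure D1:**
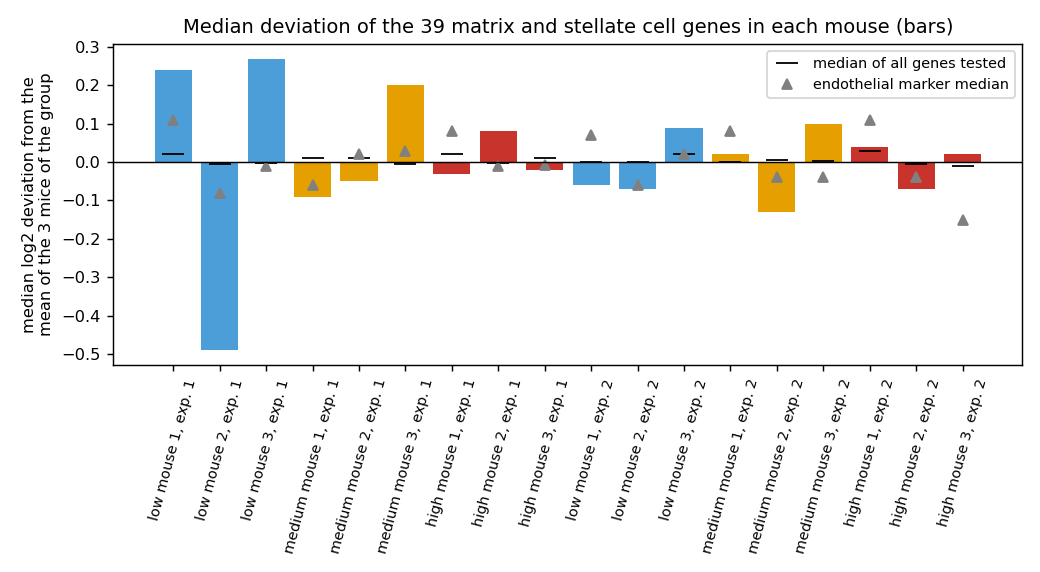
Median log2 deviation of the 39 genes from the mean of the 3 mice of the same level and experiment, 1 bar per mouse coloured by dose-rate (blue low, orange medium, red high), with the median of all 11217 genes as a dash and the median of 18 sinusoidal endothelial markers as a triangle. Low mouse 2 of experiment 1 lies at -0.49, and all other bars are between -0.13 and 0.27.

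The first comparison asked how these genes stood in livers after the high dose-rate relative to unirradiated livers. No member passed the threshold at an adjusted p of 0.05 (0 of 39 by limma, against 0.0802% of all genes). Estimates were above 0 for 30 of 39 members (51.4% of all genes), with a median of 0.23 against 0.0074 over all genes. Unadjusted p values under 0.05 were held by 7 members, all higher (17.9%, against 4.09% of all genes in that direction). These were Adamts5, Sparc, Pdgfrb, Mmp2, Efemp1, Col3a1 and Lum. As the list was chosen with earlier results known, its share beside that of all genes is not a test. The count of 7 fell to 1 without the control pool of experiment 1 and to 4 without high mouse 2 of experiment 1. Here and below, the share of all genes with an array left out is not given. Such counts are therefore not read against a background. The median lay between 0.14 (without the pool of experiment 1) and 0.32 when single arrays were left out. Within experiments the median was 0.22 in experiment 1 and 0.13 in experiment 2.

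Sparc, a glycoprotein that binds collagen and moderates its assembly, had the smallest SE of these 7. Its signal (probe set 1416589_at) was 1011 in the pool of experiment 1 and 1525, 2133 and 1637 in the high mice. In experiment 2 it was 2236 in the pool and 3557, 2410 and 2623 in the high mice. All 6 high mice lay above the pool of their experiment, in experiment 2 by a small margin for 1 of them. Over the 6 mice and 2 pools the difference came to 0.56 ± 0.20 (adjusted p = 0.489 by limma), 0.78 in experiment 1 and 0.33 in experiment 2. Without the pool of experiment 1 it was 0.37. With pools weighted by their mice it was 0.52 (adjusted p = 0.0419 by limma). Another probe set of Sparc above the filter gave 0.38, and one below it gave 0.54.

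At the medium dose-rate Sparc was 1529, 1467 and 1409 in experiment 1 and 2685, 2953 and 3343 in experiment 2, again above the pool in 6 of 6 mice (0.47 ± 0.20, adjusted p = 0.764 by limma), and 0.28 without the pool of experiment 1. At the low dose-rate it was 1796, 1104 and 1999 in experiment 1 and 2327, 2035 and 2722 in experiment 2. There 5 of 6 mice were above their pool, and the difference was 0.36 ± 0.20 (adjusted p = 0.998 by limma), 0.64 and 0.07 in the 2 experiments, 0.16 without the pool of experiment 1 and 0.55 without that of experiment 2. These 3 contrasts share the same pools and are not independent.

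Lum, lumican, a proteoglycan that spaces collagen fibrils, was 575 in the pool and 819, 936 and 899 in high mice of experiment 1, and 462 against 974, 557 and 602 in experiment 2 (0.59 ± 0.28, adjusted p = 0.671 by limma). All 6 high mice were above their pool, and at the low dose-rate 5 of 6 were (0.57 ± 0.28, adjusted p = 0.998 by limma). At the medium dose-rate Lum was 511, 432 and 643 in experiment 1, around its pool, and 547, 527 and 959 in experiment 2 (0.18 ± 0.28). Efemp1, fibulin-3, was above its pool in 6 of 6 high mice (0.56 ± 0.25, adjusted p = 0.649 by limma). Fn1 (fibronectin, 0.06 ± 0.11), Dcn (decorin, 0.17 ± 0.17) and Bgn (-0.0046 ± 0.21) had estimates about as large as their SE or smaller, though other probe sets of Bgn gave 0.57 and 0.21. Of the 8 members of this role, 7 had positive estimates at the high dose-rate (51.4% of all genes). An unadjusted p under 0.05 was held by 3, all higher (4.09% of all genes).

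Among proteases, Adamts5, an aggrecanase that cleaves large proteoglycans, gave the largest estimate. Its signal (probe set 1422561_at) was 13.3 in the pool of experiment 1, far under the array medians, and 127, 128 and 93 in the high mice. In experiment 2 the pool was at 127 and the high mice at 193, 205 and 245. The difference at the high dose-rate was 1.65 ± 0.50 (adjusted p = 0.381 by limma), 2.58 in experiment 1 and 0.71 in experiment 2. At the medium dose-rate it was 1.83 ± 0.50 (adjusted p = 0.321), with 125, 151 and 184 in experiment 1 and 247, 198 and 195 in experiment 2. With pools weighted by their mice the medium difference was 1.57 (adjusted p = 0.0487 by limma).

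At the low dose-rate Adamts5 was 113, 66.3 and 110 in experiment 1 and 165, 31.0 and 127 in experiment 2, so 4 of 6 mice were above their pool (0.91 ± 0.50, adjusted p = 0.998 by limma). Without the pool of experiment 1 the low dose-rate estimate was -0.24, and the high and medium estimates were 0.49 and 0.68. Without the pool of experiment 2 the high and medium estimates were 2.80 (adjusted p = 0.0462) and 2.99 (adjusted p = 0.0300 by limma). Other probe sets of Adamts5 that passed the filter gave -0.51 and -0.28 at the high dose-rate, and one below it, with a mean signal of 9.16, gave 1.12.

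Mmp2, a gelatinase that cleaves basement membrane collagen and is made by stellate cells, was 65.1 in the pool of experiment 1 against 207, 147 and 217 in medium mice and 223, 144 and 177 in high mice. In experiment 2 the pool was at 220, medium mice at 429, 244 and 539 and high mice at 258, 170 and 406. Every medium mouse was above its pool, and 1 high mouse of experiment 2 was below. The difference was 1.11 ± 0.33 at the medium (adjusted p = 0.435 by limma) and 0.80 ± 0.33 at the high dose-rate (adjusted p = 0.608). Without the pool of experiment 1 these were 0.68 and 0.37. A second probe set above the filter gave 0.04 and 0.37. On the first probe set, pools weighted by their mice gave 1.01 at the medium dose-rate (adjusted p = 0.0275 by limma). Mmp14, which activates pro-Mmp2 at the cell surface, was 0.27 ± 0.17 above control at the high dose-rate, and the inhibitors Timp2 and Timp3 were at 0.14 ± 0.20 and 0.12 ± 0.23.

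Pdgfrb, the receptor through which PDGF drives stellate cell division, was 213 in the pool of experiment 1 against 326, 500 and 397 in high mice, and 536 in the pool of experiment 2 against 717, 796 and 779. All 6 lay above their pool (0.70 ± 0.28, adjusted p = 0.608 by limma), and its other probe set, also above the filter, gave 1.08. Without the pool of experiment 1 the difference was 0.35, and without that of experiment 2 it was 1.05. Pdgfra, the related receptor, was at 0.06 ± 0.30, and Tgfb1, the main fibrogenic cytokine, at -0.02 ± 0.34. The stellate cell and cytoskeletal genes Lrat (0.27 ± 0.22), Acta2 (0.13 ± 0.21), Des (desmin, 0.50 ± 0.52), Vim (vimentin, 0.25 ± 0.31) and Reln (reelin, 0.10 ± 0.15) had positive estimates at the high dose-rate, each under 1.5 times its SE.

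Of the fibrillar collagens, Col3a1 was 594 in the pool of experiment 1 and 1267, 1493 and 1561 in high mice, and 1363 against 1662, 1190 and 2250 in experiment 2. The difference was 0.77 ± 0.35 (adjusted p = 0.663 by limma), 1.26 in experiment 1 and 0.27 in experiment 2, with 1 mouse of experiment 2 below its pool. At the medium dose-rate it was 0.70 ± 0.35 (adjusted p = 0.826), 0.28 without the pool of experiment 1 and 1.11 without that of experiment 2. Col1a1 and Col1a2, the chains of type I collagen, were at -0.005 ± 0.79 and 0.26 ± 0.30. The Col1a1 signal ran from 14.8 to 289 over the 6 high mice, so its contrasts had little precision.

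Basement membrane genes had the median nearest 0 of the 8 roles. Of 7 members, 3 had positive estimates at the high dose-rate, with a median of -0.0047, and Col4a1 (-0.0047 ± 0.15) and Col18a1 (-0.005 ± 0.12), the endostatin precursor, had the narrowest errors. Their 95% intervals ran from -0.32 to 0.31 and from -0.26 to 0.25. The 4 genes of collagen VI and collagen XIV, which link fibrils to cells, all had positive estimates (median 0.34), and Col6a3 was above its pool in 6 of 6 high mice (0.37 ± 0.21).

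**Figure D2:**
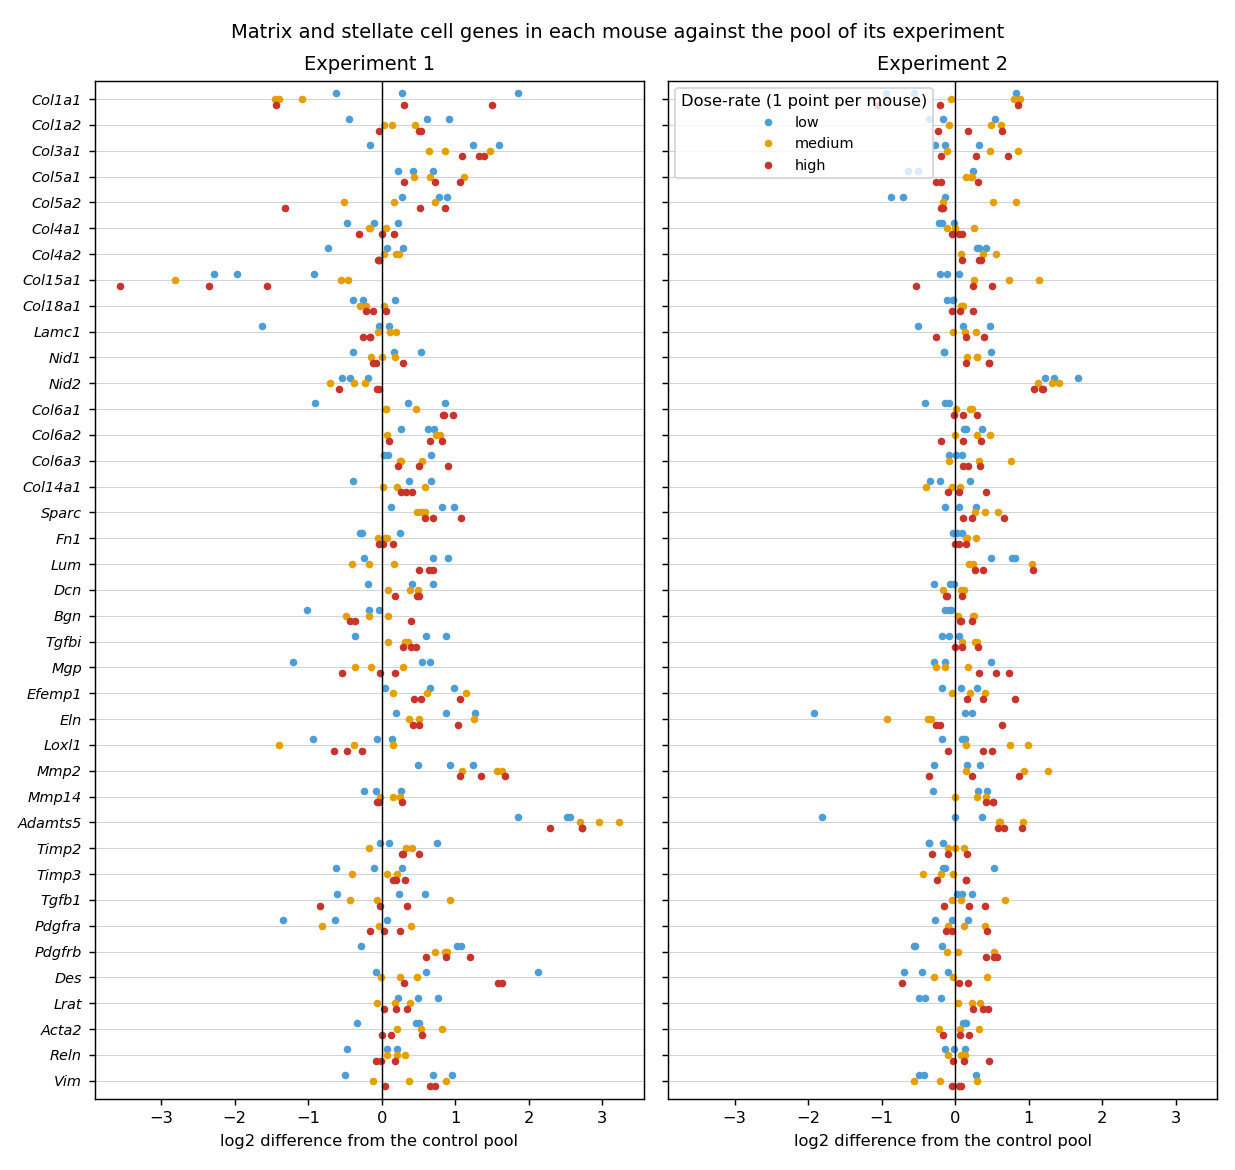
Log2 difference of each mouse from the control pool of its own experiment for the 39 genes, 1 point per mouse (blue low, orange medium, red high), experiment 1 left and experiment 2 right. All 9 Adamts5 points of experiment 1 lie to the right of 0, and the Nid2 points change side between experiments.

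Across levels, all 6 mice were above their pool for 7 members at the high dose-rate (8.56% of all genes, 17.9% of members), for 7 at the medium (9% and 17.9%) and for 1 at the low (5.22% and 2.56%). At the high level these were Col6a3, Sparc, Lum, Efemp1, Adamts5, Pdgfrb and Lrat, and at the medium level Col5a1, Col4a2, Col6a1, Sparc, Tgfbi, Mmp2 and Adamts5. All 6 mice were below the pool for 0 members at the high (7.88% of all genes) and medium levels (7.32%). At the low level Col6a2 was the member above in all 6, while Bgn was below the pool in all 6 mice (4.71% of all genes), with 0.41 and 0.07 on its other probe sets against -0.25 ± 0.21 here. At least 1.5-fold above the pool in all 6 mice was met by Adamts5 at the medium level (0.196% of all genes), and by 0 members at the high (0.196%) and low levels (0.134%). That count rests on the signal of 13.3 in the pool of experiment 1, which serves the high level too, and on values near the cut in experiment 2. There the lowest medium mouse was at 195 and the lowest high mouse at 193, against 127 for the pool.

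At the medium dose-rate 0 members passed the threshold by limma (0.0357% of all genes), and 3 had an unadjusted p under 0.05, Adamts5, Mmp2 and Sparc, all higher (7.69%, against 3.61% of all genes). The count was 1 without the pool of experiment 1, 6 without that of experiment 2 and 5 without medium mouse 1 of experiment 1. For these counts, and those of the low dose-rate with an array left out, no share of all genes is given. The members' median was 0.17 against 0.011 over all genes, and 31 of 39 estimates were above 0 (52.1% of all genes). Without the pool of experiment 2 the median was 0.29. At the low dose-rate 0 members passed by limma (0.00892% of all genes) and 0 had an unadjusted p under 0.05 (3.87% of all genes), with a median of 0.09 and 27 of 39 estimates above 0 (50.1% of all genes). When single arrays of experiment 1 were left out, that median was 0.0024 (low mouse 3), 0.01 (low mouse 1), 0.17 (low mouse 2) and 0.02 (the pool). For single arrays of experiment 2 it was 0.14 (low mouse 1 or 2) and 0.19 (the pool). By leaving out single arrays the low count ran from 0 to 3, with 3 reached without low mouse 2 of experiment 1 or low mouse 2 of experiment 2, 2 without the pool of experiment 2, and 1 without the pool of experiment 1, medium mouse 2 of experiment 1, or medium mouse 3 or high mouse 2 of experiment 2. With each array centred on its median, estimates above 0 at the low dose-rate were 16 of 39 members, against 27 as deposited, and the median was -0.01.

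Other genes of the same pathways, 103 that passed the filter, were read from lists. At the high dose-rate 0 of 103 passed by limma (0.0802% of all genes), with a median of 0.06. An unadjusted p under 0.05 was held by 12 in the higher direction (4.09% of all genes) and 1 in the lower (3.14%). The smallest p among further proteases and their receptors was that of Plaur, the urokinase receptor (1.23 ± 0.38). In growth factor signalling it was that of Pdgfc, a PDGF ligand (0.51 ± 0.17, adjusted p = 0.394 for both by limma). Against the same pools Plaur was at 1.32 at the medium and 1.52 at the low dose-rate, and Pdgfc at 0.41 and 0.38. Neither offset was particular to the high dose-rate. By list the medians were 0.26 for 25 further structural matrix genes, 0.15 for 13 further proteases and inhibitors, 0.10 for 27 genes of TGF beta and PDGF signalling, 0.04 for 20 integrins and adhesion receptors and -0.10 for 18 genes of collagen processing. Markers of quiescent stellate cells had a median of -0.09 (4 of 14 above 0), with the stellate cell transcription factor Tcf21 at 0.69 ± 0.18 (adjusted p = 0.243 by limma). Tcf21 was at 0.72 at the medium and 0.43 at the low dose-rate. Activated stellate cell markers had a median of 0.11 (7 of 10 above 0). An unadjusted p under 0.05 was held by 0 of 10 (7.23% of all genes), and 3 more of the list were below the filter. Portal fibroblast or mesothelial cell markers had a median of 0.19 (8 of 9 above 0), with 0 past the threshold by limma. An unadjusted p under 0.05 was held by 2 of 9 (7.23% of all genes). Those were Upk1b, a uroplakin of mesothelial cells (1.39 ± 0.50, adjusted p = 0.498 by limma), and Gsn, the actin-severing protein gelsolin (0.82 ± 0.30, adjusted p = 0.514). At the medium dose-rate Upk1b was at 1.51 and Gsn at 0.53. Summed over the 17 markers of that list, 8 of them below the filter, high mice of experiment 1 had signals from 18046 to 19281 against 17853 for their pool. Those of experiment 2 had 21154 to 23017 against 19786. Low mice had 15697 to 24888 in experiment 1 and 19501 to 23626 in experiment 2, and medium mice 17521 to 22502 and 23175 to 24211. The sums thus did not set the high mice apart from the other levels. The part of portal fibroblasts or mesothelial cells in the member values was not tested. Summed over 13 markers of activated stellate cells, those below the filter included, the signal in experiment 1 was 4736 for the pool and between 4943 and 5887 for high mice. In experiment 2 it was 7884 against 7013 to 7762. Low mice had 4825 to 6097 in experiment 1 and 6097 to 7947 in experiment 2, and medium mice 4738 to 5930 and 6484 to 7959.

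The next comparisons, between dose levels, do not use the pools as a group. No member passed by limma for high against low, high against medium or medium against low, as for all genes (0%). The members' medians were 0.16, 0.03 and 0.12, against 0.0036, -0.006 and 0.0087 over all genes, and 31, 25 and 32 of 39 estimates were above 0 (50.9%, 47.8% and 52.2% of all genes). Without low mouse 2 of experiment 1 the high against low median was 0.05 and the medium against low median 0.06, the latter 0.20 without low mouse 3 of experiment 1. The high against medium median ranged from -0.02 (without medium mouse 1 of experiment 1) to 0.08 (without medium mouse 3 of experiment 2). Unadjusted p values under 0.05 were found for 3 members in high against low (Pdgfrb, Col6a1 and Adamts5, against 5.38% of all genes higher), for 1 in high against medium (Lum, 1.77%) and for 3 in medium against low (Mmp2, Adamts5 and Col5a1, 4.55%). These shares of members, 7.69%, 2.56% and 7.69%, are near the background. The high against low count was 1 without low mouse 2, 7 without low mouse 1 and 10 without low mouse 3 of experiment 1. The high against medium count was 0 with any one of these left out: in experiment 1 the medium mice 1 and 2 and the high mice 2 and 3, in experiment 2 the low mice 1 and 3 and the medium mice 1 and 2. It was 2 without low mouse 1 or low mouse 2 of experiment 1 or without medium mouse 3 or high mouse 2 of experiment 2. The medium against low count was 7 without low mouse 3 and 5 without medium mouse 1 of experiment 1. Counts with an array left out have no share of all genes beside them and are not read against a background.

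Pdgfrb gave the smallest p of the members in high against low. Low mice were at 440, 174 and 456 in experiment 1, where they overlapped the high mice, and at 361, 365 and 471 in experiment 2, where all 3 high mice (717, 796 and 779) were above them. The difference was 0.61 ± 0.20 (adjusted p = 0.269 by limma), 0.29 in experiment 1 and 0.94 in experiment 2. Its other probe set gave 0.61 too. Col6a1, a chain of the microfibrillar collagen VI, was 222, 88.2 and 317 in low and 313, 344 and 314 in high mice of experiment 1, and 269, 281 and 221 against 320, 293 and 368 in experiment 2 (0.56 ± 0.21, adjusted p = 0.339 by limma). Without low mouse 2 of experiment 1, the lowest array, the difference was 0.35. Adamts5 differed by 0.74 ± 0.35 (adjusted p = 0.493 by limma), and by 0.38 without low mouse 2 of experiment 2. Its other probe sets above the filter gave -0.57 and -0.02, and one below it gave 0.73.

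Medium against low, Mmp2 differed by 0.63 ± 0.23 (adjusted p = 0.505 by limma), with low mice at 130, 94.1 and 163 in experiment 1 and 281, 178 and 246 in experiment 2. Each of the 6 medium mice was above the mean of the low mice of its experiment. The second Mmp2 probe set above the filter had the other order, at 0.04 for medium and 0.42 for low against control. Adamts5 differed by 0.92 ± 0.35 (adjusted p = 0.522), and its medium mice lay above all low mice in both experiments. Without low mouse 2 of experiment 2, at 31.0, the difference was 0.56. Other Adamts5 probe sets above the filter gave 0.05 and -0.20 for medium against control, beside 0.06 and -0.26 for low. One below the filter gave 0.62 and 0.40, so the Adamts5 difference was not seen on every probe set. Col5a1, a minor fibril chain that sets fibril diameter, differed by 0.39 ± 0.18 (adjusted p = 0.611). High against medium, Lum differed by 0.42 ± 0.20, Col15a1 by -0.93 ± 0.45 and Col6a1 by 0.34 ± 0.21 (adjusted p = 0.999 for each by limma). Kupffer cell markers were lower in 14 of 15 estimates in both high against low (median -0.15) and medium against low (median -0.19). Of the 15 markers 0 passed the threshold by limma in either, and 0 and 3 had an unadjusted p under 0.05 (10% and 7.94% of all genes). Their part in the member values was not tested.

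Within experiments, mice of 2 levels were also compared for overlap, and the difference of these counts between experiments was not itself tested. In experiment 2, 11 of 39 members had all 3 medium mice above all 3 low mice (28.2%, against 8.72% of all genes), and in experiment 1 this was so for 1, Adamts5 (2.56%, against 6.08%). The reverse order was met by 0 members in experiment 2 (7.61% of all genes) and by Col1a1 in experiment 1 (5.32%). The 11 were Col15a1, Col18a1, Col6a1, Fn1, Bgn, Tgfbi, Loxl1, Adamts5, Timp2, Pdgfrb and Lrat, so basement membrane, microfibrillar, crosslinking and receptor genes were among them. For high against low the counts were 6 in experiment 2 (Col6a1, Col6a3, Bgn, Adamts5, Pdgfrb and Lrat, 15.4% against 7.68%) and 0 in experiment 1 (6.04% of all genes higher, 5.56% lower, 0 members in either). Nid2 had all high mice below all low mice in experiment 2 (7.76% of all genes). High against medium, Col6a1 and Lum were separated upwards (4.24%) and Col4a2 and Lamc1 downwards (4.14%) in experiment 1, and Mgp, Eln and Mmp14 upwards (5.33%) and Fn1 downwards (6.58%) in experiment 2. The comparisons with low mice within an experiment use the same 3 low mice, and in experiment 1 those include the liver that stood apart. Fitted on experiment 2 alone, 10 members had an unadjusted p under 0.05 for medium against low and 0 passed the adjusted threshold. The share of all genes in that fit is not given, so the count of 10 cannot be read against a background.

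Lrat, the retinol-esterifying enzyme of vitamin A storage, had the smallest p of the members for the interaction of experiment with high against low. In experiment 1 its signal (probe set 1444487_at) was 689 in the pool, 974, 805 and 1174 in low mice, 661, 899 and 781 in medium mice and 704, 792 and 874 in high mice. In experiment 2 it was 1004 in the pool, 711, 880 and 750 in low mice, 1270, 1179 and 1027 in medium mice and 1305, 1189 and 1370 in high mice. Low mice were thus above the pool in experiment 1 and below it in experiment 2, and only in experiment 2 did the medium and high mice lie above all low mice.

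The high against low difference of Lrat was -0.30 in experiment 1 and 0.72 in experiment 2. The interaction, the second minus the first, was 1.02 ± 0.21 (unadjusted p = 0.000145, adjusted p = 0.343 by limma), and for medium against low it was 0.89 ± 0.21 (adjusted p = 0.248). Neither passed over all genes. For interactions with contrasts to control 0 of 39 members passed by limma at the high (0.00892% of all genes), medium (0%) and low dose-rate (0%), with 2, 2 and 3 at an unadjusted p under 0.05 (3.65%, 3.26% and 4.19% of all genes). For high against low, high against medium and medium against low 0 passed too (0% of all genes each), with 1, 0 and 3 at an unadjusted p under 0.05 (7.08%, 4.93% and 8.87%). Over the alternatives the high against low interaction stayed between 0.89 and 1.16, with adjusted p from 0.116 to 0.734. A second Lrat probe set, with a mean signal of 139, gave 0.06 for high against low over both experiments. The other 4 stellate cell genes had high against low interactions between -0.11 and 0.14, and Acta2 gave -0.10 for high against low in experiment 2 and 0.01 in experiment 1.

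Nid2, nidogen-2, which joins laminin to collagen IV in basement membranes, changed side of the pool between experiments. Its pool signal was 226 in experiment 1, above all 9 irradiated mice (136 to 220), and 87 in experiment 2, below all 9 (190 to 291). The differences from control were -0.23, -0.44 and -0.38 at the high, medium and low dose-rate of experiment 1 and 1.15, 1.29 and 1.41 in experiment 2. The interactions were 1.37 ± 0.43, 1.73 ± 0.43 and 1.79 ± 0.43, with adjusted p of 0.982, 0.834 and 0.584 by limma. All 3 use the same pair of pools, and the irradiated mice of both experiments spanned 136 to 291 with no difference between levels past the threshold. Adamts5 went the other way, with interactions of -1.87, -2.25 and -2.80. Mice of one experiment all above and of the other all below their pool were found for 2, 3 and 3 of 39 members at the high, medium and low dose-rate, against 9.86%, 9.41% and 10.8% of all genes.

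**Figure D3:**
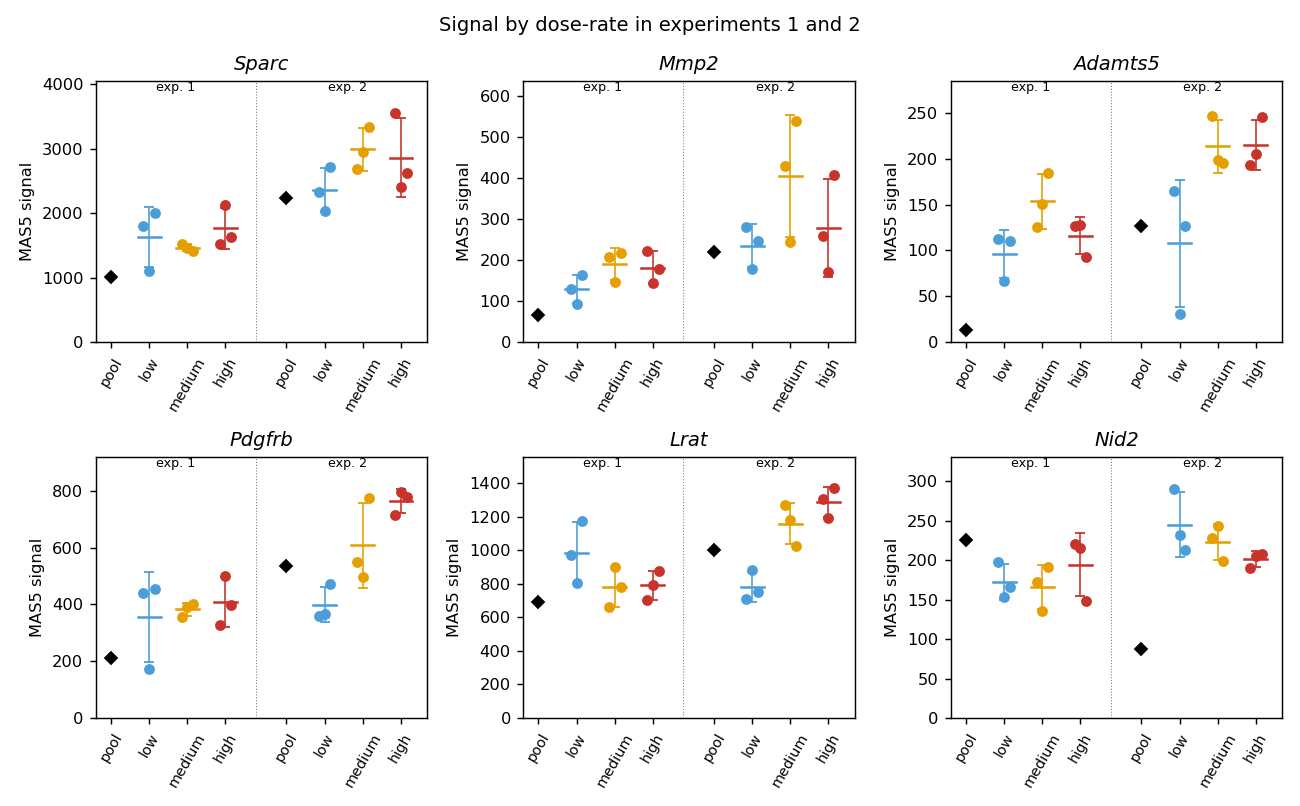
MAS5 signal (linear axis from 0) of Sparc, Mmp2, Adamts5, Pdgfrb, Lrat and Nid2 by dose-rate in experiment 1 and experiment 2. Diamonds are control pools (1 array), points are single mice, and lines with bars are the mean and SD of 3 mice. Lrat medium and high mice lie above the low mice in experiment 2, and the Nid2 pool lies above all mice in experiment 1 and below them in experiment 2.

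Between the 2 experiments many of these genes differed. Experiment 2 minus experiment 1, 25 members rose and 2 fell at an adjusted p under 0.05 by limma, 27 of 39, against 42.7% of all genes (27.9% higher, 14.8% lower). The median of the 39 was 0.44 against 0.07 over all genes. With arrays centred on their medians 27 members were higher and 1 lower, and the share of all calls that were higher went from 65.3% to 77.7%. The experiments differ in length of exposure, dose-rate and 3′/5′ ratio at once, so these cannot be told apart.

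Bgn, Col4a1 and Col4a2 had the smallest adjusted p of the members. Bgn (probe set 1416405_at) ran from 996 to 2649 over 10 arrays of experiment 1, with a median of 1779, and from 3596 to 4747 with a median of 4129 in experiment 2. The ranges did not overlap, and the rise was 1.26 ± 0.11 (adjusted p = 2.74e-08 by limma). Both other probe sets of Bgn gave 0.56. Col4a1 went from 534 to 871 (median 719) to 1133 to 1576 (median 1314), a rise of 0.88 ± 0.08 (adjusted p = 4.99e-08). Its partner Col4a2, on the opposite strand, went from 237 to 485 (median 400) to 633 to 932 (median 794), a rise of 0.95 ± 0.10 (adjusted p = 3.01e-07 by limma). The starts of Col4a1 and Col4a2 bound the 22 bases printed above.

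These 3 genes had no array of experiment 2 within the range of experiment 1. The same held for Col18a1, Fn1, Tgfb1 and Des, so 7 of 39 members were separated upwards (6.11% of all genes) and 0 downwards (2.31%). Col18a1 rose by 0.52 ± 0.07 and Fn1 by 0.44 ± 0.06, and Sparc, whose ranges overlapped, by 0.80 ± 0.11 (adjusted p = 5.23e-06 by limma), with 0.21 on a second probe set and -0.90 on one below the filter. Another Fn1 probe set gave -0.02, so its rise was not seen on both. All 4 collagen VI and XIV genes and 4 of 7 basement membrane genes rose (27.9% of all genes). So did 3 of 5 fibrillar collagens and 4 of 5 proteases and inhibitors. On other probe sets above the filter Timp3 gave -0.25, 0.08 and -0.29, and Mmp14 gave -0.05 and -0.18. Tgfbi gave 0.44, -0.59 and -0.46 on its others. Mmp2 gave 0.27 and Timp2 between 0.46 and 0.94.

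Des, the intermediate filament protein of stellate cells, had the largest rise, 2.08 ± 0.29 (adjusted p = 5.81e-06 by limma), from 19.6 to 116 (median 29.9) to 123 to 281 (median 198). Its levels in experiment 1 were mostly under the array medians, and a second probe set, below the filter, gave -0.56. Tgfb1 rose by 1.27 ± 0.18, from 87.5 to 317 (median 161) to 327 to 586 (median 387), with a second probe set, below the filter, at -0.38. Col1a1 rose by 1.72 ± 0.43 (adjusted p = 0.00266) with overlapping ranges, 14.5 to 208 and 72.4 to 294. Col15a1 rose by 1.34 ± 0.35 (adjusted p = 0.00367) and Loxl1, a lysyl oxidase of elastic fibres, by 0.96 ± 0.20. Col1a1 and Col15a1 had arrays of experiment 1 under the array medians.

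The 2 members that fell were Vim (-0.58 ± 0.17, adjusted p = 0.00893 by limma) and Mgp, matrix Gla protein, an inhibitor of calcification (-0.57 ± 0.22, adjusted p = 0.0438). Vim ran from 818 to 2252 in experiment 1 and 728 to 1324 in experiment 2, with overlap, and its other probe sets gave 0.59 and -0.16, so its direction depends on the probe set. Mgp no longer passed when arrays were centred on their medians (adjusted p = 0.101), after quantile normalization (0.0997), with no filter (0.0729), or without any of 14 single arrays (0.0509 to 0.0926). Against the 27.9% of all genes that rose and 14.8% that fell, 44 of 103 other pathway genes rose and 9 fell. Among markers, 6 of 10 of activated and 6 of 14 of quiescent stellate cells rose and 0 fell. Of sinusoidal endothelium 8 of 18 rose and 1 fell, and of portal fibroblasts 2 of 9 rose and 0 fell. Of Kupffer cells 0 of 15 passed by limma, and 2 had an unadjusted p under 0.05 (50.1% of all genes). Hepatocyte markers gave 3 higher and 2 lower of 13. The parts of these cells and of the 3′ to 5′ ratio in the member values were not tested.

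**Figure D4:**
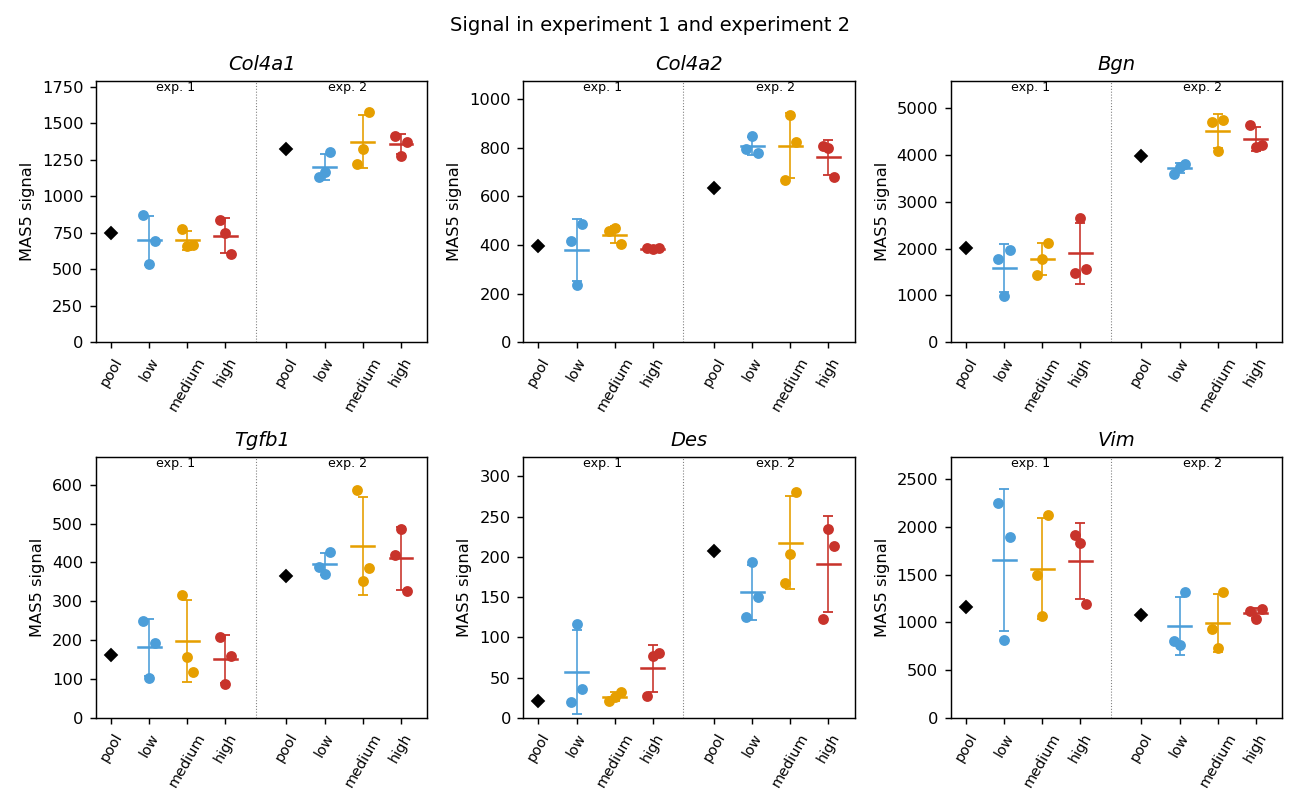
MAS5 signal (linear axis from 0) of Col4a1, Col4a2, Bgn, Tgfb1, Des and Vim on all 20 arrays, in the order pool, low, medium, high within each experiment, with single mice as points and the mean and SD of 3 mice as lines and bars. The first 5 genes have no overlap between the 2 experiments, and Vim overlaps.

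How the members varied together among mice of the same group was tested for 18 pairs, as the correlation of deviations from the group mean over 18 irradiated mice with 46656 rearrangements of mice within groups (two-sided permutation tests). Vim with Col1a1 gave r = 0.70 and rho = 0.71 (permutation p = 0.0022 and 0.0036, adjusted over the 18 pairs 0.04 and 0.065), and r was 0.59 without the 2 mice farthest in Vim. It was the 1 pair of 18 past the threshold by r, and 0 pairs passed by rho. With the other Vim probe set r was 0.55 (adjusted p = 0.21, permutation), and without low mouse 2 of experiment 1 it was 0.64 (adjusted p = 0.0822, permutation). The call was also lost without any of 11 other mice, with adjusted p from 0.0521 to 0.18 (permutation).

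Col1a1 with Col1a2, the chains that assemble into 1 protein, gave r = 0.75 and rho = 0.72 (permutation p = 0.0068 and 0.0095, adjusted 0.061 and 0.085), with r = 0.60 in experiment 1 and 0.98 in experiment 2 (9 mice each) and 0.78 without the 2 farthest mice. Lrat with Reln, both known from quiescent stellate cells, gave r = 0.67 and rho = 0.60 (permutation p = 0.018 and 0.027, adjusted 0.11 and 0.16), 0.87 in experiment 1, 0.28 in experiment 2 and 0.47 without the 2 farthest mice. Lrat with Col1a1 gave r = -0.07 and rho = -0.17 (permutation p = 0.83 and 0.57). Col4a1 with Col4a2 gave r = 0.52 and rho = 0.33 (permutation p = 0.32 and 0.31), and r was 0.14 without the 2 farthest mice, low mice 1 and 2 of experiment 1, so the relation rests on those mice. Col4a1 and Col4a2 differed together between experiments but were not shown to vary together among mice.

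The 6 members below the filter had mean signals from 31.7 (Tgfb2) to 82.1 (Timp1), under the filter at 84.7. Timp1, a protease inhibitor induced in scarring liver, ran from 2.65 to 158 and Thbs1, thrombospondin-1, which activates latent TGF beta, from 5.85 to 146, and in a fit without the filter 0 of the 6 passed in high against control or between experiments. Their adjusted p values between experiments ran from 0.0577 (Thbs1) to 0.984 (Tgfb2) by limma. No value for Fbn1 or Loxl2 is given.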

How the data were processed

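Liver RNA was measured on 20 Affymetrix arrays. Per the submitters' processing notes, the authors used MAS5 (version: not given in the sources used here). Its output, the deposited intensity of each probe set, is linear. There were 45101 probe sets: 64 array controls, 34945 with 1 symbol (18193 genes), 932 with several and 9160 with none in the platform annotation. Values were transformed as log2(signal + 7.12), the 10th percentile of all signals. The filter on low signal kept the 22519 probe sets whose mean over all arrays reached 84.7, the median of those means, 1 per gene by highest mean, which left 11217 genes. limma 3.58.1 in R 4.3.3 (lmFit, eBayes with trend, Benjamini-Hochberg at 0.05) was fitted to all 20 arrays with level and experiment as terms and 15 residual degrees of freedom, and interactions were tested over 8 group means. Nothing says more of the replicates than that they are separate mice, so p-values cover the spread among these mice only, and the number of arrays limits the precision.

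Members and lists were chosen with earlier results of these data known. Named by rule were the 4 members of smallest p in each contrast with control, 3 in each between levels, 2 in each interaction with control, the 5 largest rises and falls between experiments, the preset pairs, the highest and lowest member by signal, and up to 2 genes of each other list. The Lrat interactions, and Col4a1, Col4a2, Col18a1, Fn1 and the other members described by role, were named after their values were seen.

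The fit was tested on simulated data of 11217 genes. In its high against control contrast it found 67 of the 100 genes given a 2-fold change, 91 of the 100 given a 4-fold change, and 10 that were given none. The simulated noise was normal and independent between genes, with a pool as variable as a mouse. Many more genes were changed than the 9 called in the data, which loosens the adjusted threshold. These shares therefore do not say how often a 2-fold change of a member would have been found. Whether replicate numbers pair mice was not tested. Correlations of deviations were over 0.1 in 6 of 18 same-numbered pairs (-0.15 to 0.31), with no comparison to mice of different numbers. Leaving out arrays, normalization, pseudocount, filter, probe set choice, pool weights, and fits by experiment were the alternatives. Promoter sequences came from RefSeq.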

Additional observations from a re-analysis of the deposited data

Results flagged for a closer look

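For 14 contrasts of 10 members every mouse of one experiment lay on one side of its reference and every mouse of the other experiment on the opposite side. Values are the difference of the log2 contrast, experiment 2 minus experiment 1, and none passed over all genes by limma (0 of 14, adjusted p from 0.248 to 1). The 14 were picked by this pattern, so their unadjusted p values are not counted as a test. Nid2 gave 1.37 (high), 1.73 (medium) and 1.79 (low) against control, which all rest on the same 2 pools. Lrat gave -0.86 for low against control, 1.02 for high against low and 0.89 for medium against low. Against control, Col4a2 gave 0.30 at the high, Col15a1 1.98 and Eln, elastin, -1.24 at the medium, and Col5a2 -1.22 at the low dose-rate. Medium against low, Col1a1 gave 2.58, Sparc 0.45, Tgfbi 0.40 and Des 1.09. For the contrasts between irradiated levels the share of all genes with the pattern is not given, so those are not read against a background. Against the pools the pattern was met by 2, 3 and 3 of 39 members at the high, medium and low dose-rate, and by 9.86%, 9.41% and 10.8% of all genes.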

How the results depend on the processing

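Of 1634 recomputed values of 58 named results, 1621 kept their direction and 13 reversed. Counts below are members with an unadjusted p under 0.05 unless stated, and the cause of each change was not tested. Shares of all genes under these settings are not given, so the counts are not read against a background. Median-centred arrays gave 4 (high against control, median 0.13), 0 members 1.5-fold above the pool at the medium level and 2 pairs, and moved all genes by -0.1 against control. High against medium gave 2 with quantile normalization, a 25th percentile pseudocount, no filter or only the 2 levels compared, and the first 2 of these settings gave 0 members 1.5-fold above the pool. A pseudocount of 1 gave 1 such member at the high level, and no filter gave 1 for low against control. The top 30% of probe sets gave 1 (medium against control), 0 (medium against low) and 0 members 1.5-fold above the pool. Other probe sets first gave 0 pairs and Vim at 0.59 between experiments. No experiment term gave 1, 0 and 1 (high against control, high against medium, medium against low). Pools weighted by their mice gave 11, 9 and 4 at the high, medium and low level, 0 (high against medium) and 1 (medium against low). There limma called 1 member at the high level (Sparc, adjusted p = 0.0419) and 2 at the medium (Mmp2, 0.0275, and Adamts5, 0.0487), and 1, 1 and 2 interactions with high, medium and low against control (Nid2 in each, Adamts5 at the low). Only the 2 levels compared gave 5 (medium against control). Experiment 1 alone gave 4 and 2 (high and low against control), 0 (high against low), 1 (medium against low) and Nid2 at -0.38 for low against control. Experiment 2 alone gave 1, 1 and 1 (high, median 0.13, medium and low against control), 0 (high against medium, median -0.06), 10 (medium against low), Adamts5 at -0.49 for low against control and Col6a1 at -0.01 for high against medium.

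The replicate block gave 2 for high against medium and moved no count of adjusted calls. Whether the numbers pair the mice was not tested. Leaving out single arrays, calls ranged from 0 to 1 for high and for medium against control, and counts from 1 to 8 and 1 to 6. They ranged from 0 to 3 (low against control), 1 to 10 (high against low), 0 to 2 (high against medium) and 2 to 7 (medium against low). The medians ranged from 0.14 to 0.32 (high against control) and 0.05 to 0.22 (high against low), members 1.5-fold above the pool from 1 to 2 (medium) and 0 to 1 (high), and pairs from 0 to 2. Low against control, Nid2 ranged from -0.30 (without the pool of experiment 2) to 1.33 and Adamts5 from -0.24 (without that of experiment 1) to 2.06. The r of Col6a1 with Col6a2 turned to 0.20 (median-centred), 0.45 (other probe sets), 0.0038 and 0.28 (without low mouse 1 or 2 of experiment 1). Over single mice left out it ranged from -0.20 to 0.28, that of Col4a1 with Col4a2 from -0.00065 (without low mouse 2 of experiment 1) to 0.63, and that of Lrat with Col1a1 from -0.35 to 0.12, with 0.10 and 0.12 without high mouse 1 or 3 of experiment 1.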
